A study of Mus musculus with 42 samples.

Results

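The flavin-containing monooxygenases are flavoproteins of the endoplasmic reticulum that use NADPH and oxygen to add an oxygen atom to a nitrogen or a sulfur of foreign compounds and of some compounds of the body. Each gene of the family codes for an enzyme of its own, with its own range of substrates and its own distribution over organs. FMO1 also oxidizes hypotaurine to taurine, FMO5 is known for Baeyer-Villiger oxidation of ketones, FMO2 is known as a major form in the lung of many mammals, and FMO4 is the least characterized of the enzymes described here.

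The genes described here are *Fmo1*, *Fmo2*, *Fmo4* and *Fmo5*, which were chosen by name as a family, though with earlier results of these data known. They are 4 of the 18193 genes that a probe set of the array names alone, and 10 of the 45037 probe sets tested measure them: 1 probe set for *Fmo1*, 5 for *Fmo2*, 1 for *Fmo4* and 3 for *Fmo5*. All 10 were kept, since no filter on low values was used. Where a gene has several probe sets, the one with the highest mean over all arrays leads the description, which is 1422904_at for *Fmo2* and 1450332_s_at for *Fmo5*. *Fmo1* is measured by 1417429_at and *Fmo4* by 1425799_at.

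The study asked how an amino acid mixture composed like the saliva of *Vespa* larvae (VAAM) changes the transcriptomes of the liver and of white (WAT) and brown (BAT) adipose tissue. Male ddY mice, bought at 5 weeks of age, received VAAM or water by feeding tube on 5 days, and the tissues were taken 4 h after the last administration. Each tissue was measured in 7 VAAM mice and 7 water mice, on 42 arrays in all, and a further group given a casein-like mixture was not analysed here.

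The deposited values were summarized by the distribution free weighted method (DFW) on a log scale. Its base is not given and was read as 2. They vary very little between mice of a tissue: the median SD of a probe set over the 14 arrays was 1.08e-05 in liver, 1.41e-05 in WAT and 1.06e-05 in BAT. The method compresses the deviations of each probe set by its own factor, so the VAAM mean minus the water mean was divided by the pooled SD within groups and is written with its standard error; it is no fold change. The liver and BAT labels matched the median levels of their marker genes. The 5 hepatocyte markers had a median of 14.7 in liver, against 6.87 in WAT and 6.68 in BAT. The 5 brown adipocyte markers had one of 13.1 in BAT, against 6.47 in liver and 6.82 in WAT. Among them, *Dio2* was no higher in BAT (7.0) than in liver (7.03). The 4 measured markers of white and brown adipocytes had medians of 12.66 in WAT, 12.57 in BAT and 6.81 in liver. These medians set fat apart from liver but not WAT from BAT. Of the other cell types, epididymis markers varied most between WAT samples and skeletal muscle markers between BAT samples. By principal components, 4 arrays of VAAM mice stood apart from their tissue, namely mouse 6 in liver, mouse 1 in WAT and mice 3 and 5 in BAT. Mouse numbers are the replicate numbers of the labels, which do not say that a number is the same mouse in every tissue. Fewer cells of a type and less RNA per cell cannot be told apart in these bulk samples.

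*Fmo4*, *Fmo1* and *Fmo2* lie next to each other on chromosome 1, with 0 protein-coding genes between neighbours, and *Fmo5* lies on chromosome 3 (RefSeq, GRCm38.p6). The stretch of 250 bases before the transcription start is shown for the genes that the RefSeq table lists, because their levels followed different orders of the tissues. Capitals mark 5 motifs that were searched on both strands: the core of the TATA box (TATAA), the CCAAT box, the GC box (GGGCGG), a half-site of the motif of the hepatocyte factor HNF1 (GTTAAT) and a half-site of nuclear receptors (AGGTCA). On the opposite strand the nuclear receptor half-site reads TGACCT, the CCAAT box ATTGG and the TATA core TTATA. Of the 32851 windows of this length in the table, 22.8% hold the TATA core on either strand, 33.8% the CCAAT box, 32.7% the GC box, 6.43% the HNF1 half-site and 14% the nuclear receptor half-site.
*Fmo2*, second listed start, chr1:162898494-162898743, minus strand: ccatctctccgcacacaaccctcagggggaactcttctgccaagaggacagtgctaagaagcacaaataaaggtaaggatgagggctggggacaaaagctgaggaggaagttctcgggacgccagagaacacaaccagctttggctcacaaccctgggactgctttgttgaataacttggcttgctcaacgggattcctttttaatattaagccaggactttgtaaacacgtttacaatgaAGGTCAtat
*Fmo4*, chr1:162812550-162812799, minus strand: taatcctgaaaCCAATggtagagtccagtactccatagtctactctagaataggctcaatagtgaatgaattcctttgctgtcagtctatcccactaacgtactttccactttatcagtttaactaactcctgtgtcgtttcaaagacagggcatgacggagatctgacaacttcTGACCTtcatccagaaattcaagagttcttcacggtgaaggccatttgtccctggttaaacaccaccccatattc
*Fmo5*, chr3:97628769-97629018, plus strand: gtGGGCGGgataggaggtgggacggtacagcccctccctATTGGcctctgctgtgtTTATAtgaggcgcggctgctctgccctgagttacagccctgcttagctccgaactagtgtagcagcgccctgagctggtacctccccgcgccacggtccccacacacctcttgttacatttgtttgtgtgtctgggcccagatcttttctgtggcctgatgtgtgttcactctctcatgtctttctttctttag

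The *Fmo5* window held the GC box 248 to 243 bases before the start, ATTGG 211 to 207 bases before it and TTATA 194 to 190 bases before it. The *Fmo4* window held CCAAT 239 to 235 bases and TGACCT 75 to 70 bases before the start. The window of the second *Fmo2* start held AGGTCA 9 to 4 bases before it, and the window of the first listed start, at chr1:162898759-162899008 on the minus strand, held none of the motifs. These matches describe the letters only.

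The levels were compared over the tissues first. The members did not share an order of tissues: *Fmo1* was highest in BAT, 4 of the 5 *Fmo2* probe sets in WAT, and *Fmo4* and all 3 *Fmo5* probe sets in liver. For each of the 10 probe sets the values of the 3 tissues did not overlap. The share of all probe sets without overlap was not counted, so this is not read as a trait of the members. The values look as if each tissue had been summarized on its own: the median SD of the 3 tissue means of a probe set was 0.215, against 1.89e-05 within groups. A limma test called 99.9% of all probe sets between liver and WAT and 99.8% both between liver and BAT and between BAT and WAT, and so the levels below are a description with no test. To give them a scale, the levels of the leading probe sets are accompanied by their percentile among all probe sets of the tissue, and their differences by the percentile among the differences of all probe sets.

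*Fmo5* was the member with a high level in liver alone. The level of 1450332_s_at was 11.43 in liver, 7.73 in WAT and 6.92 in BAT on the log2 scale, at the 98.0, 70.2 and 56.1 percentile of these tissues. Liver minus WAT was 3.7 and liver minus BAT 4.51, at the 99.3 and 99.4 percentile of these differences. The other *Fmo5* probe sets showed the same peak, with 9.89 in liver, 6.85 in WAT and 6.49 in BAT for 1440899_at. For 1421709_a_at the levels were 9.34 in liver, 6.67 in WAT and 6.61 in BAT. The order of the adipose tissues was less clear, because BAT minus WAT was only -0.06 for 1421709_a_at, at the 54.4 percentile, and this probe set had a higher percentile in BAT (41.2) than in WAT (39.9).

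*Fmo1*, whose enzyme makes taurine, was in the upper part of the range in every tissue. Its level was 10.5 in liver, 10.06 in WAT and 11.96 in BAT, at the 96.2, 94.2 and 98.8 percentile. BAT minus WAT was 1.9, at the 99.6 percentile of this difference, and liver minus BAT was -1.46, at the 2.5 percentile. Liver and WAT were closer, with a difference of 0.44, at the 91.2 percentile.

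*Fmo2* was the member with its highest level in WAT. The leading probe set had 7.39 in liver, 9.42 in WAT and 7.59 in BAT, at the 70.6, 90.4 and 73.3 percentile. The probe sets 1422905_s_at (6.86 in liver, 9.8 in WAT and 7.33 in BAT), 1435459_at (6.89, 8.99 and 7.27) and 1453435_a_at (6.49, 8.04 and 6.96) had the same order of tissues. BAT minus WAT lay between -1.08 and -2.47 for these 4 probe sets, at percentiles between 0.3 and 4.4. The fifth, 1454005_at, hardly varied between tissues and had 6.41 in liver, 6.37 in WAT and 6.31 in BAT, at the 31.8, 24.3 and 23.8 percentile. It thus disagreed with the others in its order, and a reading of *Fmo2* from it alone would give no peak in WAT.

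*Fmo4* lay above the median probe set in liver and below it in WAT. Its level was 7.05 in liver, 6.48 in WAT and 6.77 in BAT, at the 62.6, 30.2 and 49.8 percentile. Liver minus WAT was 0.57, liver minus BAT 0.28 and BAT minus WAT 0.29, at the 93.3, 82.8 and 89.4 percentile of these differences.

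**Figure D1:**
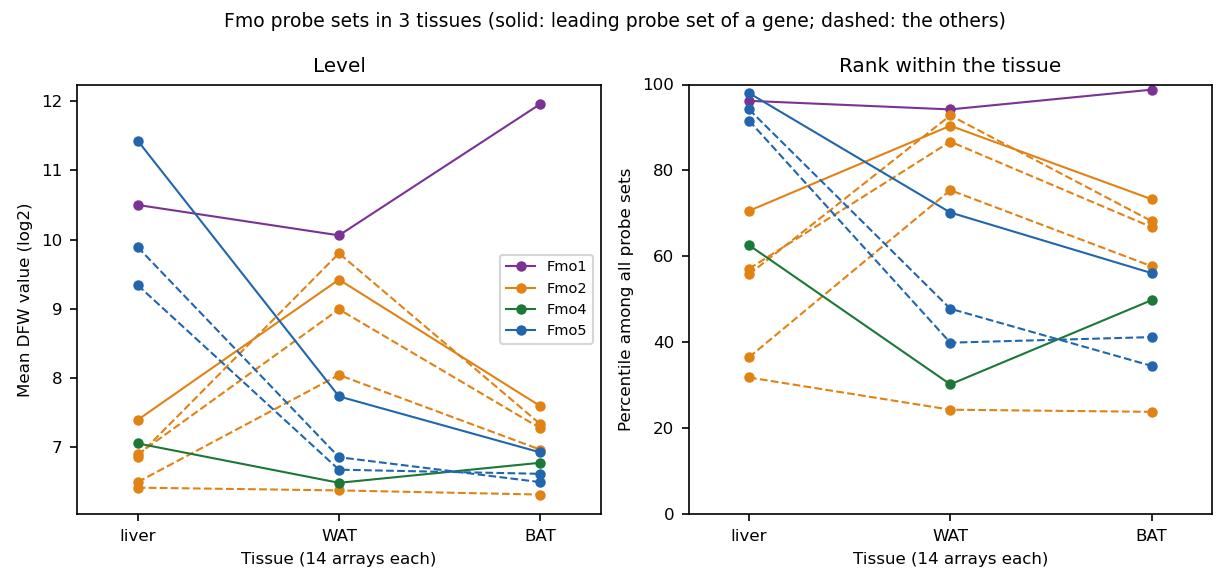
Mean level of the 10 Fmo probe sets in each tissue (left, DFW value on the log2 scale) and its percentile among all probe sets of the tissue (right), with lines joining the tissue means of a probe set, solid for the leading probe set of a gene and dashed for the others. Fmo5 peaked in liver at 11.43, Fmo1 in BAT at 11.96 and 4 of the 5 Fmo2 probe sets in WAT, and the spread between mice is smaller than the symbols.

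The genes most like each member over the 42 arrays were sought by Pearson correlation. For *Fmo5* these were *Nr1i2*, the pregnane X receptor that senses foreign compounds, *Atg5* and *Tead3*, for *Fmo1* they were *Tbkbp1*, *Crygf* and *Sncb*, for *Fmo2* *Mansc1*, *1700025G04Rik* and *Spock2*, and for *Fmo4* *Rlbp1*, *C1ql3* and *Snrnp48*. The r of all of these rounded to 1.0, with Spearman's rho between 0.86 and 0.92. The number of probe sets with r over 0.99 was 1787 for *Fmo5*, 993 for *Fmo1*, 2928 for *Fmo2* and 918 for *Fmo4*, so the measure reads the 3 tissue means and singles out no partner.

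VAAM was then compared with water within each tissue. The 10 probe sets measure 4 genes in the same mice, 5 of them *Fmo2* and 3 *Fmo5*. Counts and medians over them, here and below, are therefore not those of independent members. In the liver, 7 of the 10 probe sets had a higher mean in VAAM mice (*Fmo1*, all 5 of *Fmo2* and *Fmo4*) and all 3 of *Fmo5* a lower one. The median over the 10 probe sets was 0.36 SD, against -0.05 SD over all probe sets, of which 46.7% were higher. With limma, 0 of the 10 passed an adjusted p of 0.05, and 0.0% of all probe sets did. At an unadjusted p of 0.05, 1 of the 10 passed, against 9.09% of all probe sets. For none of the 10 did the mice of the groups separate, which 0.155% of all probe sets did.

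*Fmo4* was the probe set with the smallest p. In SD from the water mean, the liver of VAAM mice had 0.13 at the lowest, 0.97 at the median and 3.47 at the highest, and that of water mice -0.82, 0.07 and 1.75. Each of the 7 VAAM mice exceeded the median of the water mice and mouse 3 stood highest, but water mouse 4, at 1.75, was above 5 of the VAAM mice, so the groups overlapped. The difference was 1.38 ± 0.604 SD (SE, n = 7 each), with an exact permutation p of 0.0245 and an adjusted limma p of 0.48. Without water mouse 4 it was 1.91. The call depended on the test. A single limma fit over all 42 arrays gave an adjusted p of 0.0111, where 1.53% of all probe sets were called. That fit takes 1 spread for all tissues, while the pooled SD of *Fmo4* was 0.000131 in liver, 7.42e-06 in WAT and 3.55e-06 in BAT. It therefore understates the spread of *Fmo4* in liver, and with it this p. After a repeated quantile normalization the difference was -0.09. That normalization moved the probe sets at large downwards: 33472 of the 45037 were lower in VAAM liver under it, against 24007 as deposited.

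*Fmo1* had -0.23 at the lowest, 0.61 at the median and 2.37 at the highest in the liver of VAAM mice, and -1.21, -0.12 and 1.86 in that of water mice. VAAM mouse 7 and water mouse 6 were the highest of their groups, and 5 of the 7 VAAM mice exceeded the median of the water mice. The difference of 0.77 ± 0.557 SD was within the spread between mice (exact permutation p 0.174, adjusted limma p 0.694).

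*Fmo2* had -0.31 at the lowest, 0.83 at the median and 1.6 at the highest in the liver of VAAM mice for its leading probe set, and -1.19, -0.63 and 1.82 in that of water mice. Each of the 7 VAAM mice exceeded the median of the water mice, and yet the highest value was that of a water mouse. The difference was 0.67 ± 0.552 SD (exact permutation p 0.226, adjusted limma p 0.739), and the other 4 probe sets gave 0.15 to 0.47 SD.

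The probe sets of *Fmo2* agreed on which liver was high. Water mouse 6 was the highest water mouse in 4 of the 5 and water mouse 2 the lowest in 4 of the 5, and VAAM mouse 4 was the lowest VAAM mouse in 4 of the 5. For 1435459_at, water mouse 6 had 2.12 and water mouse 4 had 1.28, while water mice 1, 2 and 3 had -1.13, -1.22 and -1.03. The water mice were thus split widely and the VAAM mice lay between: the variance of VAAM mice was 0.18 to 0.371 of that of water mice over the 5 probe sets. These probe sets read transcripts of the same gene in the same mice, so they count as 1 observation of the spread, which was not tested.

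**Figure D2:**
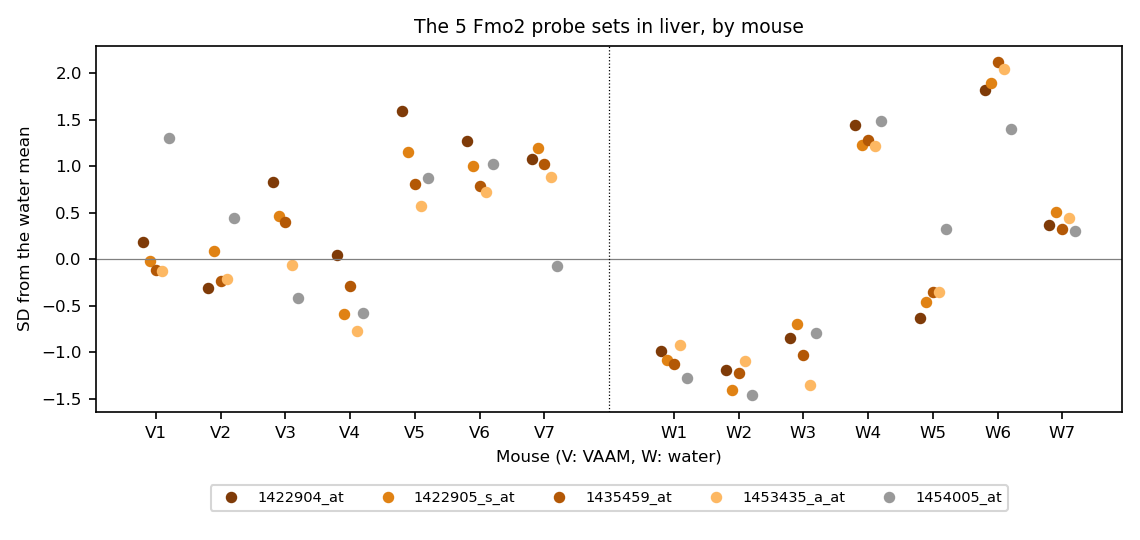
Value of each of the 5 Fmo2 probe sets in the liver of each VAAM mouse (V1 to V7) and each water mouse (W1 to W7), in SD from the water mean, with 1 colour per probe set. Water mice 4 and 6 are high and water mice 1, 2 and 3 low in all 5, and the VAAM mice lie closer together.

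*Fmo5* differed least in the liver. Its leading probe set had -1.6 at the lowest, -0.16 at the median and 1.67 at the highest in VAAM mice, and -0.95, -0.12 and 1.53 in water mice. The VAAM mice spanned the whole range of the water mice. The difference was -0.13 ± 0.535 SD (exact permutation p 0.804), and it was -0.33 SD for 1440899_at and -0.46 SD for 1421709_a_at. VAAM mouse 1 was the highest VAAM mouse in all 3 *Fmo5* probe sets. Without VAAM mouse 6, whose liver array stood apart, the leading probe sets gave 0.66 SD for *Fmo1*, 0.56 SD for *Fmo2*, 1.45 SD for *Fmo4* and -0.13 SD for *Fmo5*, so no sign changed.

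The study itself used rank products, which order the differences of the deposited values and do not weigh them against the spread of each probe set. At a false discovery rate of 0.05 this test called 7 of the 10 probe sets higher in the liver of VAAM mice, against 2.69% of all probe sets, and 2 lower, against 1.43%. The false discovery rate was 0.0276 for *Fmo1*, 0.0148 for *Fmo4* and 0.000753 for the leading probe set of *Fmo2*. The *Fmo5* probe set 1440899_at was called in both directions, with 0.0324 for higher and 0.0 for lower. The SD within groups of 9 of the 10 probe sets was above the 90 percentile of all probe sets in liver, and that of 1440899_at was at the 99.7 percentile. When each probe set was scaled to unit SD first, rank products called 0 of the 10 in either direction, against 0.502% of all probe sets higher and 0.36% lower.

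In WAT, 1 of the 10 probe sets had a higher mean in VAAM mice and 9 a lower one. The median was -0.16 SD, against -0.01 SD over all probe sets, of which 49.4% were higher. Limma called 0 of the 10 at an adjusted p of 0.05, where it called 0.0% of all probe sets, and 0 at an unadjusted p of 0.05, against 3.76%. The groups separated for 0 of the 10, against 0.0488% of all probe sets. All 4 endothelial markers also had lower means in the WAT of VAAM mice, with a median of -0.85 SD and *Cdh5* lowest at -1.13 SD, and 0 of the 4 were called. Their part in the *Fmo* values was not tested. *Fmo2*, the member with its highest level there, had -1.28 at the lowest, -0.72 at the median and 1.81 at the highest in VAAM mice, and -0.77, -0.17 and 0.66 in water mice. The VAAM mice thus reached further in both directions, with 4.59 times the variance of the water mice, and the difference of -0.13 ± 0.535 SD was small beside the spread (exact permutation p 0.811).

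*Fmo5* had -1.9 at the lowest, -0.7 at the median and 1.49 at the highest in the WAT of VAAM mice, and -1.3, 0.36 and 1.0 in that of water mice. VAAM mouse 6 was the highest VAAM mouse, and among water mice mouse 6 was the highest and mouse 2 the lowest, in all 3 *Fmo5* probe sets. The differences were -0.36 ± 0.54 SD for the leading probe set, -0.68 ± 0.552 SD for 1440899_at and -0.38 ± 0.54 SD for 1421709_a_at (exact permutation p 0.507, 0.215 and 0.49).

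*Fmo1* had -2.27 at the lowest, 0.17 at the median and 1.13 at the highest in the WAT of VAAM mice, and -1.1, 0.09 and 1.21 in that of water mice, a difference of -0.02 ± 0.535 SD. The lowest of these was VAAM mouse 1, which also had the lowest value in 2 of the 3 *Fmo5* probe sets. This array is the one that stood apart in WAT, and its mean over 6 epididymis markers, 13.339, was the highest of all WAT samples. Over the 7 mice of each group that mean had a lowest of 7.779 and a median of 8.534 in VAAM mice, and a lowest of 7.107, a median of 7.319 and a highest of 11.821 in water mice. The part of epididymal RNA in the *Fmo1* value was not tested. Without this array the difference was 0.48 SD for *Fmo1*, -0.01 SD for *Fmo2* and -0.11 SD for *Fmo5*. *Fmo4*, at the 30.2 percentile in WAT, gave -0.08 ± 0.535 SD, and -0.05 SD without the array.

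In BAT, 5 of the 10 probe sets had a higher mean in VAAM mice, 4 a lower one and 1 a difference of 0 to 2 decimals. The median was 0.04 SD, against -0.02 SD over all probe sets, of which 48.6% were higher. Limma called 0 of the 10 at an adjusted p of 0.05 (0.0% of all probe sets) and 0 at an unadjusted p of 0.05 (5.1%), and the groups separated for 0 of the 10 (0.0955%). *Fmo1*, the member with its highest level there, had -1.12 at the lowest, 0.55 at the median and 1.51 at the highest in VAAM mice, and -0.93, -0.29 and 1.22 in water mice. The VAAM mice reached beyond the water mice at both ends, and the difference was 0.29 ± 0.538 SD (exact permutation p 0.583).

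*Fmo2* had -2.7 at the lowest, -0.64 at the median and 0.92 at the highest in the BAT of VAAM mice, and -1.14, 0.13 and 0.75 in that of water mice. In this leading probe set VAAM mouse 5 was the lowest, with VAAM mouse 3 next at -1.3, and both arrays stood apart in BAT. VAAM mouse 5 was also the lowest for 1422905_s_at, at -2.76. It was above the water mean for 1435459_at (0.57), 1453435_a_at (0.38) and 1454005_at (1.17), so it was not low in *Fmo2* by every probe set. The difference was -0.55 ± 0.546 SD (exact permutation p 0.337), and 0.05 SD without VAAM mice 3 and 5. The *Fmo2* probe sets did not move together here, with -0.44 SD for 1422905_s_at and 0.42 SD for 1435459_at. Water mouse 2 was nevertheless the lowest water mouse in all 5. Rank products called 1 of the 10 probe sets lower in BAT, 1422905_s_at with a false discovery rate of 0.0164, against 2.24% of all probe sets, and 0 of the 10 higher, against 2.16%. In WAT they called 0 of the 10 in either direction, against 2.03% of all probe sets higher and 1.47% lower. On values scaled to unit SD they called 0 of the 10 in both adipose tissues, against 0.229% higher and 0.113% lower in BAT and 0.0799% higher and 0.0955% lower in WAT. *Fmo4* and *Fmo5* both gave 0.16 SD in BAT, with standard errors of 0.536 and 0.535. Without VAAM mice 3 and 5 the differences in BAT were 1.0 SD for *Fmo1*, 0.28 SD for *Fmo4* and 0.5 SD for *Fmo5*, with an adjusted limma p of 1.0 for each.

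**Figure D3:**
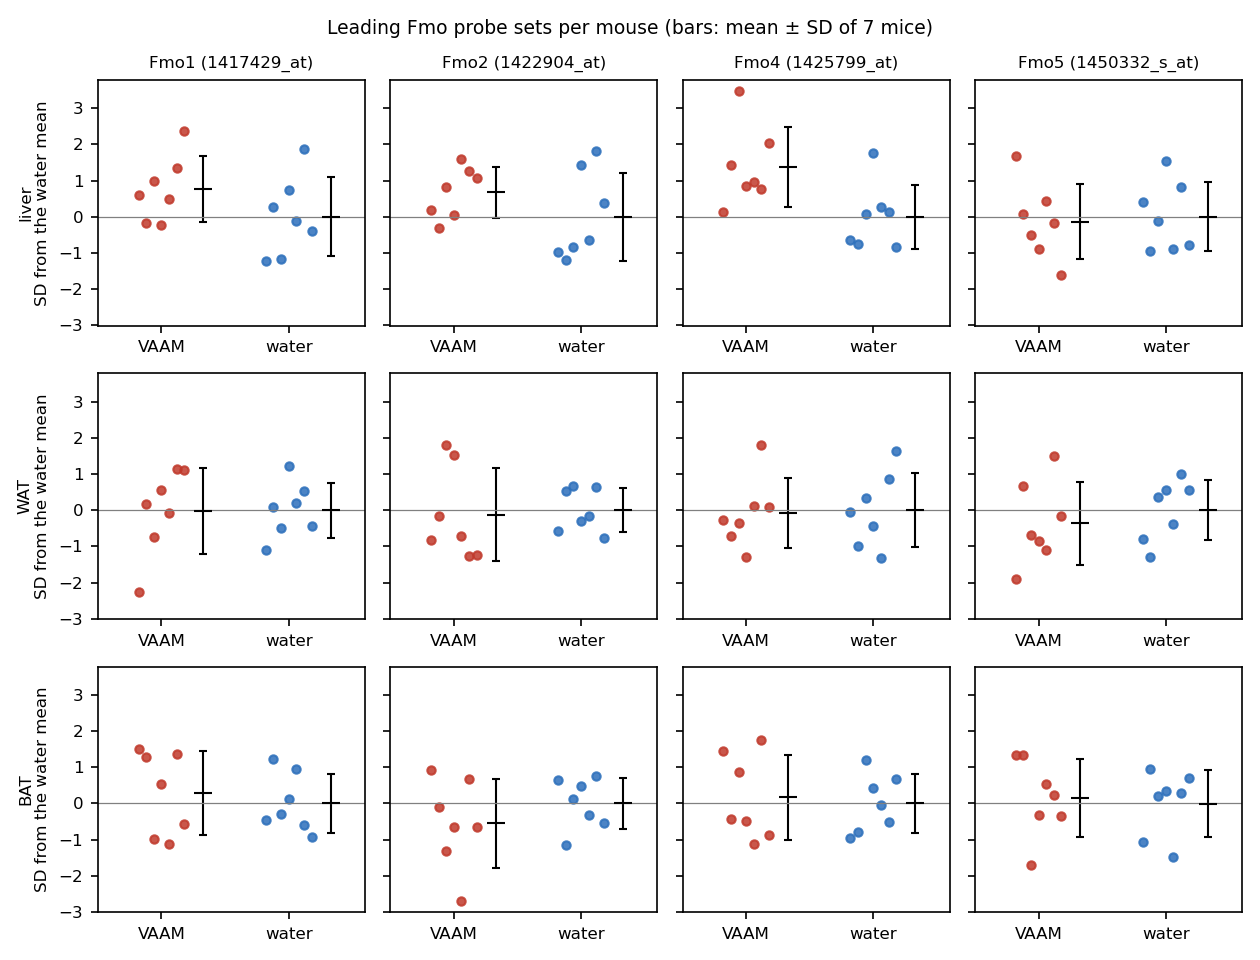
Value of the leading probe set of each gene in every mouse, in SD from the water mean, with VAAM mice in red left of water mice in blue and bars for the mean ± SD of 7 mice. The groups overlap in every panel, and the difference of Fmo4 in liver is 1.38 SD.

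**Figure D4:**
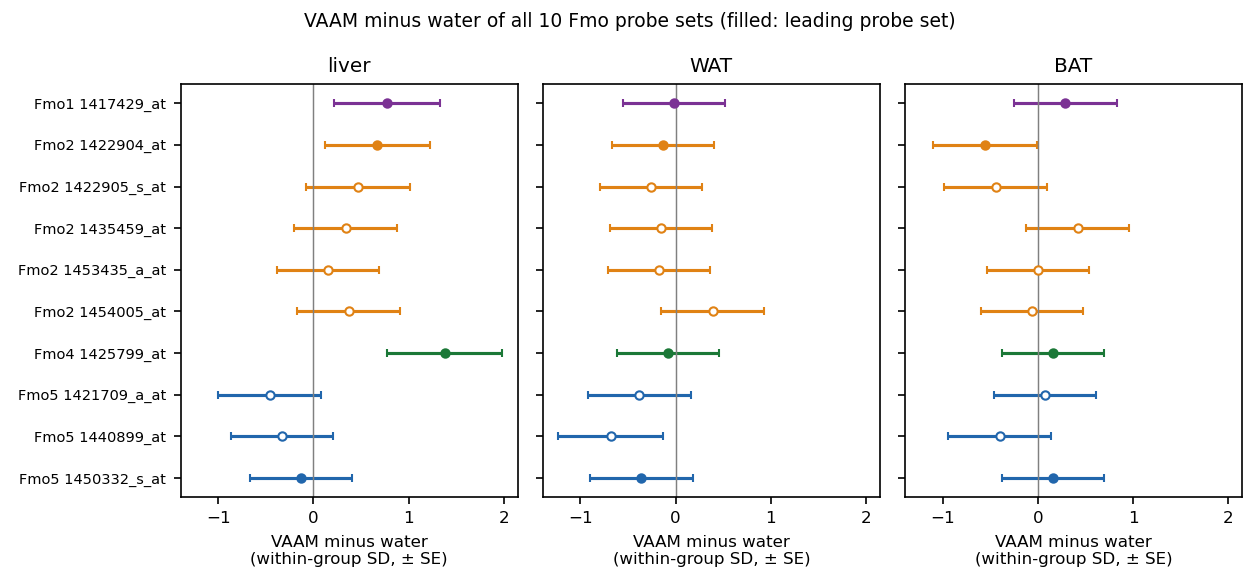
VAAM minus water of the 10 Fmo probe sets in each tissue, in SD within groups, with bars for ± 1 standard error and filled symbols for the leading probe set of a gene. The Fmo1, Fmo2 and Fmo4 values lie above 0 in liver, and 9 of the 10 values lie below 0 in WAT. Of the 10 probe sets, 5 measure Fmo2 and 3 Fmo5 in the same mice.

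The response was also compared between tissues, on values scaled to unit SD in each tissue. Over the 10 probe sets the smallest adjusted limma p was 0.501 for the effect in liver minus that in WAT, 0.725 for liver minus BAT and 1.0 for BAT minus WAT, so 0 of the 10 were called, against 0.249%, 0.153% and 0.02% of all probe sets. *Fmo4* came nearest, with an effect 1.46 SD higher in liver than in WAT (limma p 0.053 before adjustment). This fit took the arrays of the 3 tissues as independent although the tissues came from the same mice, and with the replicate number within a diet group as a block the smallest adjusted p was 0.406, 0.619 and 0.994 in the same order of contrasts. The pattern of higher means in liver and lower means in WAT is therefore not shown to be a difference between these tissues.

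Other redox proteins, NADPH supply, hypotaurine and taurine, and the foreign-compound response were described from 4 lists of 32 genes, of which 29 were measured. In the liver, 14 had a higher mean in VAAM mice and 15 a lower one, and limma called 0 of the 29 at an adjusted p of 0.05 in any of the tissues. At an unadjusted p of 0.05, 4 of the 29 were higher in liver, against 4.17% of all probe sets. They were *Ado*, which codes for a thiol dioxygenase that makes hypotaurine from cysteamine (2.31 ± 0.712 SD), *Rxra*, the retinoid X receptor that pairs with the receptors of foreign compounds (1.92 ± 0.662 SD), *Cyb5r1*, a cytochrome b5 reductase (1.44 ± 0.61 SD), and *Nfe2l2*, the factor of the antioxidant response (1.22 ± 0.59 SD). Their adjusted limma p values were 0.33, 0.364, 0.464 and 0.517. The lowest gene in the list of other redox proteins was, in liver, the monoamine oxidase gene *Maob* with -0.99 SD. In WAT and BAT *Maob* was the highest of that list, with 1.05 ± 0.576 and 0.63 ± 0.55 SD. In the list of nuclear receptors and factors the lowest in liver was *Nr1i3*, the constitutive androstane receptor, with -0.86 SD. The highest of that list in BAT was *Nfe2l2*, with 1.09 ± 0.579 SD.

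Hypotaurine, the substrate of FMO1, is made from cysteine through the products of *Cdo1* and *Csad*. These gave -0.13 and 0.1 SD in liver, -0.75 and -0.13 SD in WAT and 0.13 and 0.04 SD in BAT. The taurine transporter gene *Slc6a6* gave 0.69 SD in liver, 0.04 SD in WAT and 0.09 SD in BAT. The 6 measured genes of NADPH supply ran between -0.66 SD (*Idh1*) and 0.14 SD (*Pgd*) in liver. In WAT the 29 genes were 10 higher and 19 lower, with the folate enzyme gene *Mthfd1* highest among those of NADPH supply (1.25 ± 0.593 SD), and in BAT 13 were higher and 16 lower. Beside these, all 4 endothelial markers and all 4 macrophage markers had higher means in the liver of VAAM mice, with medians of 0.79 and 0.42 SD. Of the fibroblast markers 3 of 4 were higher, with a median of 0.52 SD. All 5 skeletal muscle markers and 3 of 5 brown adipocyte markers had lower means, with medians of -0.67 and -0.89 SD. The levels of these 2 lists were low in liver, with medians of 6.65 and 6.47, at the 46.0 and 35.2 percentile. Their differences are therefore not read as a change in muscle or brown fat cells. Hepatocyte markers were 3 higher and 2 lower. Limma called 0 of the markers of these cell types at an adjusted p of 0.05. The part of these cell types in the liver values of *Fmo1*, *Fmo2* and *Fmo4* was not tested.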

How the data were processed

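Liver, WAT and BAT RNA of 7 VAAM and 7 water mice was hybridized to Affymetrix mouse genome arrays, 1 per mouse and tissue. The authors made the values by the DFW method, and the deposited table holds log2 values per probe set, with the base not stated and taken as 2. The paper and the submitters' processing notes name different R versions, and the notes name 2.7.2. The number of arrays limits the precision. Of 45101 probe sets, 64 controls were left out. Probe sets were named through the platform annotation (34945 name 1 gene, 932 several, 9160 none).

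Each tissue was fitted on its own with limma 3.58.1 in R 4.3.3 (default prior, Benjamini-Hochberg adjustment over all probe sets, threshold 0.05). Exact permutation p values are two-sided, over all splits of 14 mice. The standard error of a difference in SD was taken from the group sizes and the difference itself. Rank products used 49 pairs of arrays and 50 permutations (Python 3.11.15, numpy 2.4.6, pandas 2.3.3, scipy 1.17.1, with plots by matplotlib 3.10.9). The planned test between tissues was run but called nearly all probe sets, so tissue levels are given without it. The limma and rank product code was also run on simulated data. For rank products these had the same spread in every probe set, unlike the deposited values, so that check does not cover the calls made here. For correlation over arrays each gene had its best probe set, and of the lists some of the highest and lowest genes of each tissue were named. *Ado*'s companions *Cdo1*, *Csad* and *Slc6a6* and *Nfe2l2* were named after their values had been seen. The genes and lists were chosen with earlier results of these data known. Alternatives are given in the closing section. Promoter sequences are from RefSeq (GRCm38.p6): *Fmo2* matched 2 starts, *Fmo4* and *Fmo5* 1 each, and *Fmo1* matched none.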

Additional observations from a re-analysis of the deposited data

Results flagged for a closer look

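Of 60 groups of 7 mice (10 probe sets, 3 tissues, VAAM and water), 2 held a mouse far from the others by Dixon's criterion, and chance flags about 1 in 20 groups. In BAT, VAAM mouse 5 was the lowest of its group for the *Fmo2* probe set 1422905_s_at, at -2.76 SD from the water mean, with a gap to the next mouse of 0.587 of the range of the group. In the liver, water mouse 4 was the highest of its group for *Fmo4*, at 1.75 SD, with a gap of 0.581 of the range.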

How the results depend on the processing

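For the leading probe sets, 82 values under other limma settings were compared with the main differences between VAAM and water, beside the fits that left out 1 array: 73 kept their direction and their side of the threshold, 8 changed sign, 5 of them under quantile normalization, and 1 passed the threshold. Of 24 values by rank products, 3 passed it. After quantile normalization of the 42 arrays again, which left 11565 of 45037 probe sets higher in VAAM mice in liver, 1753 in WAT and 5151 in BAT, against 21030, 22264 and 21876 as deposited, *Fmo4* gave -0.09 and *Fmo5* 0.0 SD in liver, and *Fmo1* -0.26, *Fmo4* -0.03 and *Fmo5* -0.07 SD in BAT. With the mean of its probe sets, *Fmo5* gave -0.06 SD in BAT. Without the arrays that stood apart, chosen after seeing the data as those over 2.2 SD on 1 of the first 3 components, *Fmo1* gave 0.48 SD in WAT and *Fmo2* 0.05 SD in BAT. Rank products called *Fmo1* (0.0276), *Fmo2* (0.000753) and *Fmo4* (0.0148) in liver. The 1 fit over 42 arrays, which understates the spread of *Fmo4* in liver, called *Fmo4* there (1.38 SD). The causes were not tested.

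Limma called 0 probe sets in each tissue, with 4096 at an unadjusted p of 0.05 in liver, 1692 in WAT and 2296 in BAT. In liver, WAT and BAT the count was 691, 129 and 315 in 1 fit over 42 arrays, 81, 13 and 23 genes with means of probe sets, 1858, 1578 and 1986 by rank products, and 388, 79 and 154 by rank products on scaled values. It was 1 in liver after quantile normalization. With the replicate number as a block it was also 1 in liver, and no member's call changed. Same-numbered VAAM and water mice deviated together in few pairs (r -0.128 to 0.136 in liver, -0.0786 to 0.478 in WAT, -0.191 to 0.174 in BAT), so the numbers were not taken to pair VAAM with water mice. Between tissues of the same diet group, same-numbered arrays had r between -0.0363 and 0.297, over 0.1 in 6 of 7 pairs for BAT and WAT of VAAM mice and 5 of 7 of water mice. The tissues came from the same mice, but the labels do not say that a number marks a mouse, and the fits over 42 arrays took the arrays as independent. With the number within a diet group as a block, added after seeing the data, the difference of the VAAM effect called 149 probe sets for liver minus WAT, 107 for liver minus BAT and 14 for BAT minus WAT, against 112, 69 and 9, and 0 of the 10 members' probe sets either way.

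Leaving out 1 array gave, in liver, 0.56 to 1.27 SD for *Fmo1*, 0.49 to 1.14 for *Fmo2*, 1.23 to 1.91 for *Fmo4* and -0.51 to 0.13 for *Fmo5*, and 0 to 5 called probe sets (5 without water mouse 2). In WAT it gave -0.22 to 0.48, -0.54 to 0.06, -0.47 to 0.21 and -0.78 to -0.11 SD in the same order of genes, and in BAT 0.09 to 0.56, -0.85 to -0.24, -0.11 to 0.4 and -0.1 to 0.55 SD. For the tissue levels, only the *Fmo2* probe set 1454005_at changed a sign (liver minus WAT 0.04, liver minus BAT 0.1), and with probe sets above the median alone the calls were 22499, 22486 and 22491 for liver minus WAT, liver minus BAT and BAT minus WAT, against 44970, 44929 and 44964, since fewer were tested. *Fmo4* lay below the median in WAT, in BAT and over all arrays and had no value there under that setting.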
